A study of Homo sapiens with 4 samples.

Results

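The genes described are 10 enzymes and enzyme subunits that modify transfer RNA or ribosomal RNA: the pseudouridine synthases PUS1 and PUS7, the cytosine methyltransferases NSUN2 and NSUN5, the tRNA methyltransferase TRMT1, the subunit pair TRMT6 and TRMT61A, the shared partner TRMT112, and the pair METTL1 and WDR4. They were chosen by name, each symbol matching a row of the deposited table, and are 10 of its 24940 genes. The study sequenced RNA from MOLM-13 cells, a human acute myeloid leukaemia line that carries a KMT2A fusion. The table held 4 libraries, 1 in each of 4 groups. The double knockdown carried hairpins against both c-Myc and Bcl-2 (sh-c-Myc_sh-Bcl2), the sh-c-Myc cells a hairpin against c-Myc, the sh-Bcl2 cells a hairpin against Bcl-2, and the shControl cells a control hairpin. All 4 groups were infected with lentivirus, selected with puromycin or G418 and induced with doxycycline, for which the protocol names 72 h where it describes the Western blot, and the labels do not say whether the lines were pools or clones. Each value below therefore stands on 1 library per group, and its interval covers counting error only, not the spread between cultures.

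Modified bases are made on tRNA and rRNA after transcription. Pseudouridine synthases turn uridine into its rotated isomer, and methyltransferases add a methyl group to a base or sugar, marks that bear on RNA folding, tRNA stability and decoding. c-Myc is a transcription factor known for driving genes of ribosome production and nucleolar function, and Bcl-2 is a mitochondrial protein that blocks apoptosis. Several of these enzymes work as obligate pairs, so both subunits are given side by side below.

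Total counts were between 14421558 and 15691129 per library. Levels are given as counts per 1000000 (CPM) scaled with TMM, a scaling that takes most genes as unchanged, or as FPKM, which also divides by gene length. BCL2 stood at 44.5 CPM in the double knockdown, 112 CPM in sh-c-Myc and 38.7 CPM in sh-Bcl2, against 119.7 CPM in shControl, so it was low in both libraries with its hairpin. MYC stood at 301.6 CPM in the double knockdown, 278.2 CPM in sh-c-Myc and 364.3 CPM in sh-Bcl2, against 433.7 CPM in shControl. Its log2 ratio to shControl was -0.52 in the double knockdown, -0.64 in sh-c-Myc and -0.25 in sh-Bcl2, a drop of less than 2-fold at the RNA level in both libraries with its hairpin. All 9 of 9 myeloid leukaemia markers, FLT3 and CD33 among them, had counts in all 4 libraries, while 3 measured erythroid markers together held at most 0.595 CPM.

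PUS1 and PUS7 make pseudouridine without a guide RNA. PUS1 lies at 131929200 to 131945896 on the plus strand of chromosome 12, and PUS7 at 105439661 to 105522267 on the minus strand of chromosome 7 (GRCh38, GENCODE 29). PUS7 had 279 counts in the double knockdown, 182 in sh-c-Myc and 899 in sh-Bcl2, against 701 in shControl, which is 17.8, 11.7, 59.4 and 49.8 CPM in that order. Both libraries with the c-Myc hairpin were low and both without it were high. Against shControl its log2 ratio was -2.09 in sh-c-Myc (95% counting interval -2.33 to -1.85), or 4.25-fold lower, and this was the lowest ratio of the 10 genes. PUS1, which modifies tRNA in the nucleus and mitochondria, had 78.4 CPM in the double knockdown, 67.8 CPM in sh-c-Myc and 169.8 CPM in sh-Bcl2, against 179.6 CPM in shControl. Its ratio to shControl was 2.65-fold lower in sh-c-Myc, at a log2 ratio of -1.41 (-1.51 to -1.30).

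NSUN2 methylates cytosines in many tRNAs, and NSUN5 methylates a cytosine of the large-subunit rRNA. NSUN2 lies at 6599239 to 6633291 on the minus strand of chromosome 5, and NSUN5 at 73302517 to 73308867 on the minus strand of chromosome 7. NSUN2 was the most abundant of the 10 by FPKM in every library, with 174.6 CPM in the double knockdown, 145.0 CPM in sh-c-Myc and 252.4 CPM in sh-Bcl2, against 221.9 CPM in shControl. Its log2 ratio to shControl was -0.35 in the double knockdown, -0.61 in sh-c-Myc and 0.19 in sh-Bcl2, so it stayed short of 2-fold in each. NSUN5 had 884 counts in the double knockdown, 851 in sh-c-Myc and 1050 in sh-Bcl2, against 976 in shControl, or 56.55, 54.6, 69.4 and 69.3 CPM in that order. It had the smallest c-Myc hairpin difference of the 10, a log2 ratio of -0.34 (-0.48 to -0.21) in sh-c-Myc. NSUN5 has 2 named copies on chromosome 7 between which reads may be split. NSUN5P2, at 2.18 to 6.80 CPM, had log2 ratios to shControl of 0.65 (0.18 to 1.13) in sh-c-Myc and -0.98 (-1.65 to -0.36) in sh-Bcl2. NSUN5P1 had 30.1 CPM in the double knockdown, 43.0 CPM in sh-c-Myc, 32.8 CPM in sh-Bcl2 and 37.0 CPM in shControl, and was not lower than shControl in sh-c-Myc (log2 ratio 0.22, 0.05 to 0.39).

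TRMT1 places a dimethyl mark on a guanosine of tRNA. It lies at 13104902 to 13117567 on the minus strand of chromosome 19 and had 49.2 CPM in the double knockdown, 43.4 CPM in sh-c-Myc and 88.5 CPM in sh-Bcl2, against 105.6 CPM in shControl. The log2 ratio to shControl was -1.10 (-1.23 to -0.98) in the double knockdown, -1.28 (-1.42 to -1.15) in sh-c-Myc and -0.26 (-0.36 to -0.15) in sh-Bcl2. TRMT1 was thus more than 2-fold below shControl in both libraries with the c-Myc hairpin, and high in both without it.

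TRMT6 and TRMT61A form the enzyme that methylates an adenosine in the T loop of tRNA, with TRMT61A as the catalytic subunit. TRMT6 lies at 5937235 to 5950558 on the minus strand of chromosome 20, and TRMT61A at 103529184 to 103537073 on the plus strand of chromosome 14. TRMT61A had 228 counts in the double knockdown, 200 in sh-c-Myc and 471 in sh-Bcl2, against 623 in shControl, or 14.6, 12.8, 31.1 and 44.2 CPM in that order. It was 3.03-fold lower in the double knockdown and 3.44-fold lower in sh-c-Myc, and its log2 ratio in sh-Bcl2 was -0.51 (-0.68 to -0.33). TRMT6 had 30.8 CPM in the double knockdown, 28.7 CPM in sh-c-Myc and 52.5 CPM in sh-Bcl2, against 49.5 CPM in shControl, and stayed short of 2-fold in each comparison. The catalytic subunit was lower relative to its partner wherever a c-Myc or Bcl-2 hairpin was present. The ratio of TRMT61A to TRMT6 in FPKM was 0.553 in the double knockdown, 0.523 in sh-c-Myc and 0.694 in sh-Bcl2, against 1.04 in shControl. The log2 ratio of TRMT61A minus that of TRMT6 was -0.91 (-1.19 to -0.64) for the double knockdown against shControl, -0.99 (-1.28 to -0.71) for sh-c-Myc and -0.59 (-0.82 to -0.36) for sh-Bcl2. The longest transcripts of the pair differ in GC content, at 64.7% for TRMT61A and 41.2% for TRMT6. With a trend of all ratios with GC content and length removed, the difference of log2 ratios was -0.68, -1.07 and -0.29 in the same order.

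METTL1 methylates guanosine in tRNA together with WDR4, its non-catalytic partner. METTL1 lies at 57768471 to 57772793 on the minus strand of chromosome 12, and WDR4 at 42843094 to 42879568 on the minus strand of chromosome 21. WDR4 had 428 counts in the double knockdown, 273 in sh-c-Myc and 836 in sh-Bcl2, against 844 in shControl, or 27.4, 17.5, 55.2 and 59.9 CPM in that order. METTL1 had 207 counts in the double knockdown, 139 in sh-c-Myc and 262 in sh-Bcl2, against 249 in shControl, or 13.2, 8.91, 17.3 and 17.7 CPM. Both subunits were lowest in sh-c-Myc, but here it was the non-catalytic partner that differed more. WDR4 was 3.42-fold lower in sh-c-Myc than in shControl and METTL1 1.98-fold lower, just short of the 2-fold threshold. The log2 ratio of METTL1 minus that of WDR4 was 0.71 (0.40 to 1.03) for the double knockdown against shControl, 0.79 (0.43 to 1.15) for sh-c-Myc and 0.09 (-0.20 to 0.37) for sh-Bcl2. Of the METTL1 exon bases, 23.4% overlap another gene, so its counts carry some uncertainty. Over 4.1% this is CYP27B1 on the same strand, whose log2 ratio in sh-c-Myc was -0.996, and over 19.3% EEF1AKMT3 on the opposite strand, whose ratio was 0.28 (-0.02 to 0.57).

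**Figure D1:**
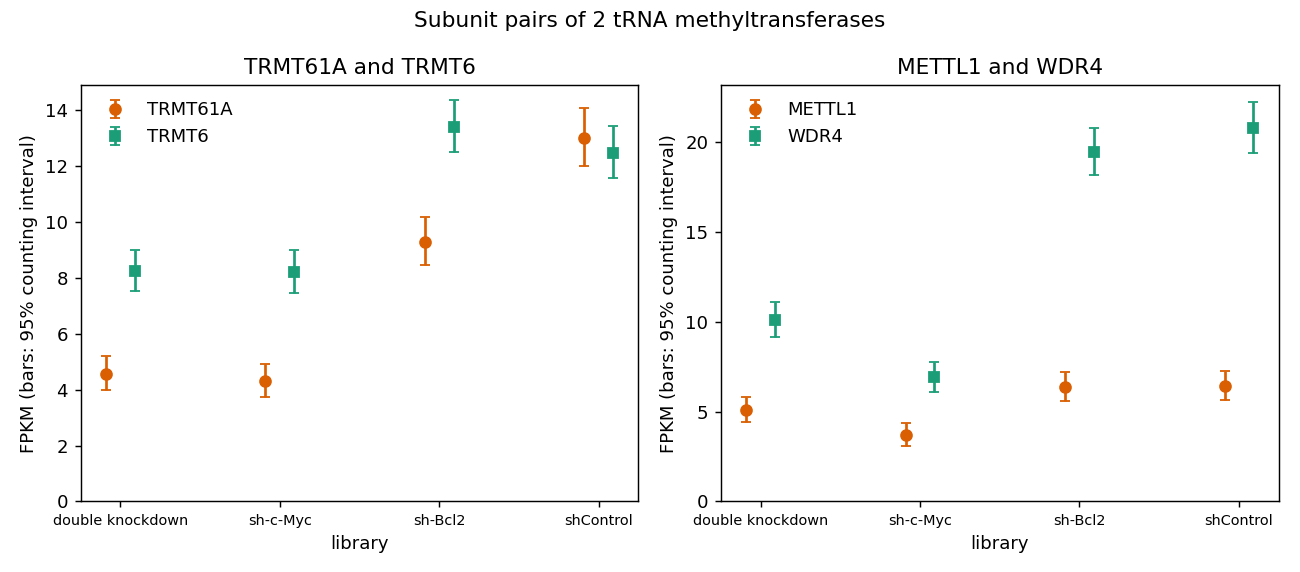
FPKM of TRMT61A and TRMT6 (left) and of METTL1 and WDR4 (right) in each library, with 95% counting intervals as bars and axes from 0. TRMT61A stands below TRMT6 in every library but shControl, where the ratio is 1.04, and the ratio of METTL1 to WDR4 is 0.505 in the double knockdown, 0.532 in sh-c-Myc and 0.327 in sh-Bcl2, against 0.308 in shControl.

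TRMT112 is the small activating partner of several tRNA, rRNA and protein methyltransferases. It lies at 64316460 to 64318084 on the minus strand of chromosome 11 and had 454 counts in the double knockdown, 419 in sh-c-Myc and 545 in sh-Bcl2, against 859 in shControl. In CPM these are 29.04, 26.9, 36.0 and 61.0 in the same order, so shControl stood above the other 3 libraries. TRMT112 was the only one of the 10 to reach 1.5-fold in sh-Bcl2, at 1.69-fold lower than shControl (log2 ratio -0.76, -0.92 to -0.60). Its exons overlap ESRRA on the opposite strand over 17.5% of their bases, and the strand setting behind the counts was not given in the sources used here. ESRRA itself had log2 ratios to shControl of -0.39 in the double knockdown, -0.14 in sh-c-Myc and -0.35 in sh-Bcl2. None of the named copies of TRMT112 had a row in the deposited table.

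**Figure D2:**
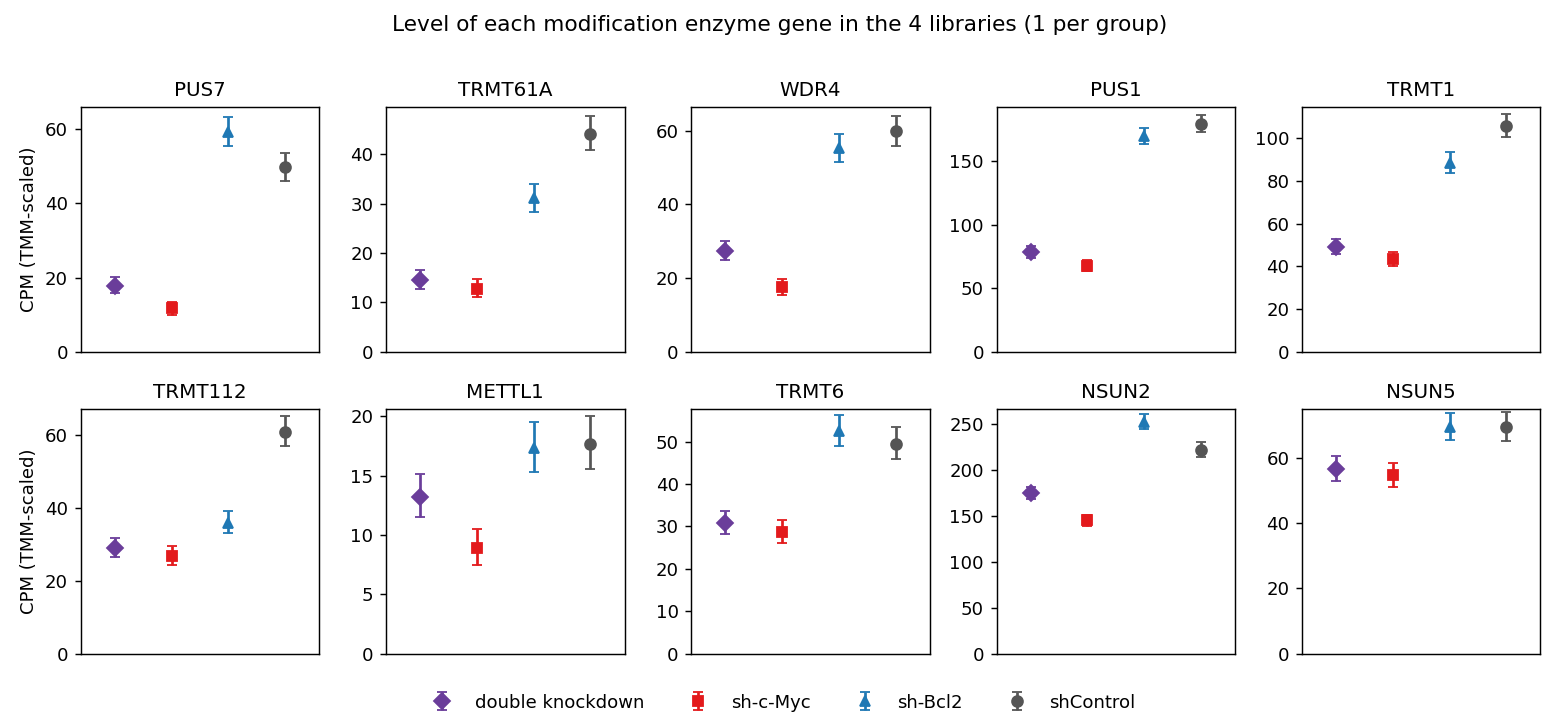
TMM-scaled CPM of the 10 modification enzyme genes in each of the 4 libraries, 1 panel per gene with its own linear axis from 0 and 95% Poisson counting intervals as bars. PUS7 stands at 17.8 and 11.7 CPM in the libraries with the c-Myc hairpin and at 59.4 and 49.8 CPM in those without it, while TRMT112 in sh-Bcl2, at 36.0 CPM, lies nearer to the c-Myc hairpin libraries than to shControl.

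A gene was called lower or higher at 2-fold or beyond if the interval left out equality, among the 13726 genes that reached 1 CPM in some library, a filter that all 10 members passed. In sh-c-Myc against shControl 6 of the 10 were called lower and 0 higher: PUS1, PUS7, TRMT1, TRMT61A, TRMT112 and WDR4. Over all genes 9.80% were called lower and 12.7% higher in that comparison. The median log2 ratio of the 10 was -1.23, against -0.02 over all genes, and all 10 intervals lay below 0. Ratios below 0 made up 51.1% of all genes. The share of all genes with an interval clear of 0 was not computed, here or below, so interval counts of the members have no background. The same 6 genes were called lower in the double knockdown against shControl, where 5.95% of all genes were called lower and 7.11% higher. The median of the 10 there was -1.09, against -0.01 over all genes, and again all 10 intervals lay below 0. In bulk RNA, fewer cells of a type and less RNA per cell cannot be told apart. The comparisons with shControl share that library, so they are not independent of each other. Scaling to total counts moved the median of all genes in sh-c-Myc against shControl to 0.17, and higher calls then made up 71.0% of all calls, against 56.5% with TMM. TRMT112 then missed 2-fold in sh-c-Myc, at a log2 ratio of -0.99, and in the double knockdown, at -0.98. With a trend of the ratios with GC content and length removed, TRMT1, TRMT112 and WDR4 were just short of 2-fold in the double knockdown, at -0.94, -0.92 and -0.95, with intervals below 0. METTL1 was then at -0.25 (-0.52 to 0.02) in the double knockdown, so its interval held 0.

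The c-Myc hairpin could also be set against its absence within Bcl-2 hairpin cells, a ratio that uses no shControl counts. It shares the double knockdown library with a comparison above, so it is not an independent repeat. The TMM factors and the CPM filter came from all 4 libraries. In the double knockdown against sh-Bcl2, 4 of the 10 were called lower and 0 higher, PUS1, PUS7, TRMT61A and WDR4, while 3.61% of all genes were called lower and 5.19% higher. PUS7 was 3.32-fold lower, at a log2 ratio of -1.73 (-1.93 to -1.54). The median of the 10 was -0.81, against -0.01 over all genes, and all 10 intervals lay below 0. WDR4, at -1.01, was close to the threshold and fell short of it with total counts (-0.95). TRMT112 was at -0.31 (-0.49 to -0.13), against -1.18 in sh-c-Myc against shControl.

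**Figure D3:**
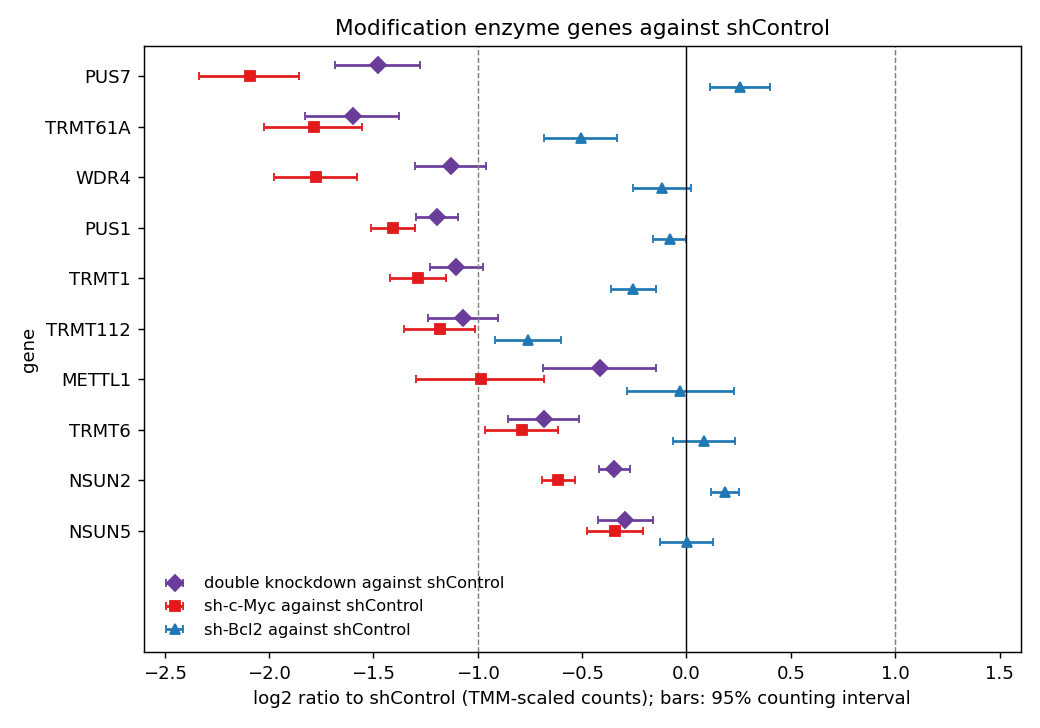
Log2 ratio to shControl of each of the 10 genes in the double knockdown, sh-c-Myc and sh-Bcl2 libraries, with 95% counting intervals as bars and dashed lines at 2-fold. The sh-c-Myc points lie between -2.09 and -0.34, the double knockdown points between -1.60 and -0.29, and the sh-Bcl2 points between -0.76 and 0.26.

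All 4 libraries together form a layout with each hairpin present or absent, so an additive fit leaves 1 residual degree of freedom, which holds non-additivity and the spread between libraries together. With edgeR's quasi-likelihood test and Benjamini-Hochberg adjustment over 12885 genes, 8 of the 10 fell with the c-Myc hairpin and 0 rose. Over all genes 14.2% fell and 9.20% rose. PUS7 fell by 1.91 on the log2 scale (adjusted p = 0.000232) and PUS1 fell by 1.26 (adjusted p = 0.000599). WDR4 fell by 1.39 (adjusted p = 0.00108), TRMT61A by 1.44 (adjusted p = 0.00125) and TRMT1 by 1.07 (adjusted p = 0.00167). TRMT6, NSUN2 and TRMT112 also passed, with estimates of -0.78, -0.57 and -0.75, though TRMT112 did not under DESeq2 (adjusted p = 0.059). METTL1, at -0.68 (edgeR adjusted p = 0.0617), and NSUN5, at -0.32 (edgeR adjusted p = 0.17), did not pass. MYC itself was at -0.46 (edgeR adjusted p = 0.0792).

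Summed markers of myeloid cells were higher in the libraries with the c-Myc hairpin as well. The 9 myeloid leukaemia markers summed to 2783 CPM in the double knockdown and 2979 CPM in sh-c-Myc, against 1527 CPM in sh-Bcl2 and 1321 CPM in shControl, and 3 of 9 were called higher in the double knockdown and 4 in sh-c-Myc, against shControl. Of 12 monocyte and macrophage markers, 11 were measured and summed to 936 CPM in the double knockdown and 852 CPM in sh-c-Myc, against 335 CPM in sh-Bcl2 and 207 CPM in shControl. Of the 9 that passed the CPM filter, 6 were called higher in the double knockdown and 5 in sh-c-Myc, against shControl, where 7.11% and 12.7% of all genes were. CD14 had 11 to 19 counts, CD163 9 to 31 and FCN1 1 to 7, and VCAN had 5 counts in the double knockdown and 0 in each of the other libraries. From the first list MPO, LYZ and CSF3R were called higher in both libraries and PTPRC in sh-c-Myc only. MEIS1 went the other way, at -0.58 in the double knockdown and -0.49 in sh-c-Myc, and HOXA9 was at 0.33 and 0.07. From the second list CSF1R, LYZ, S100A8, S100A9 and ITGAM were called higher in both and MS4A7 in the double knockdown only. LYZ, at 347 CPM in the double knockdown, is in both sums. The part of the markers in the levels of the modification enzymes was not tested.

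The Bcl-2 hairpin alone was accompanied by small differences in mixed directions. In sh-Bcl2 against shControl 0 of the 10 were called, while 2.16% of all genes were called lower and 2.46% higher, and the median of the 10 was -0.06, against 0.00 over all genes. Counting intervals lay below 0 for PUS1, TRMT1, TRMT61A and TRMT112 and above 0 for PUS7 and NSUN2, and held 0 for the other 4. In the edgeR fit 0 of the 10 passed for the Bcl-2 term, where 0.0233% of all genes fell and 0.0155% rose. By edgeR, 1 of the 10 had an unadjusted p under 0.05, PUS7 (estimate 0.42, edgeR adjusted p = 0.65), and by DESeq2 and limma-voom 0 of the 10 did.

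The GC content of a gene's longest transcript moved with the sh-Bcl2 ratios. Across 10739 genes Spearman's rho between GC content and the log2 ratio of sh-Bcl2 to shControl was -0.345, a description across genes, which are not independent replicates and share both libraries. PUS7, NSUN2 and TRMT6, with 41.9%, 43.8% and 41.2% GC, had ratios of 0.26, 0.19 and 0.08, and TRMT61A, with 64.7% GC, had -0.51. At 59.2%, 58.4% and 57.2% GC, PUS1, NSUN5 and METTL1 were at -0.08, 0.00 and -0.03, and TRMT112, at 53.6% GC, had the lowest ratio of the 10, -0.76. After removal of the trend with GC content and length, the median of the 10 was 0.10. TRMT112 was then at -0.63 (-0.79 to -0.47) and TRMT61A at -0.26 (-0.44 to -0.09), while TRMT1 held 0. PUS1 turned to 0.10 (0.02 to 0.18) and NSUN5 to 0.19 (0.06 to 0.32), with PUS7 at 0.20 and NSUN2 at 0.14 as before above 0. For the double knockdown the same rho was -0.198 against shControl and -0.313 against sh-c-Myc, and for sh-c-Myc against shControl it was near 0.

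With the c-Myc hairpin present, the Bcl-2 hairpin went with levels above those of the sh-c-Myc library. In the double knockdown all 10 log2 ratios to sh-c-Myc were above 0, between 0.05 and 0.64, although NSUN5 was at -0.05 with total counts, which moved the median of all genes to -0.07, and TRMT6 at -0.04 (-0.23 to 0.15) once the trend with GC content and length was removed. The counting interval lay above 0 for 6, PUS1, PUS7, NSUN2, TRMT1, METTL1 and WDR4. Among all genes 47.4% of these ratios lay below 0, and the share with an interval above 0 was not computed. By the 2-fold rule 0 of the 10 were called, while 4.85% of all genes were called lower and 1.65% higher, and the median of the 10 was 0.20, against 0.03 over all genes. WDR4 was highest at 0.64 (0.42 to 0.87), PUS7 stood at 0.61 (0.34 to 0.89) and METTL1 at 0.57 (0.25 to 0.89). At 27.4 CPM in the double knockdown, WDR4 still stood below its 59.9 CPM in shControl.

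**Figure D4:**
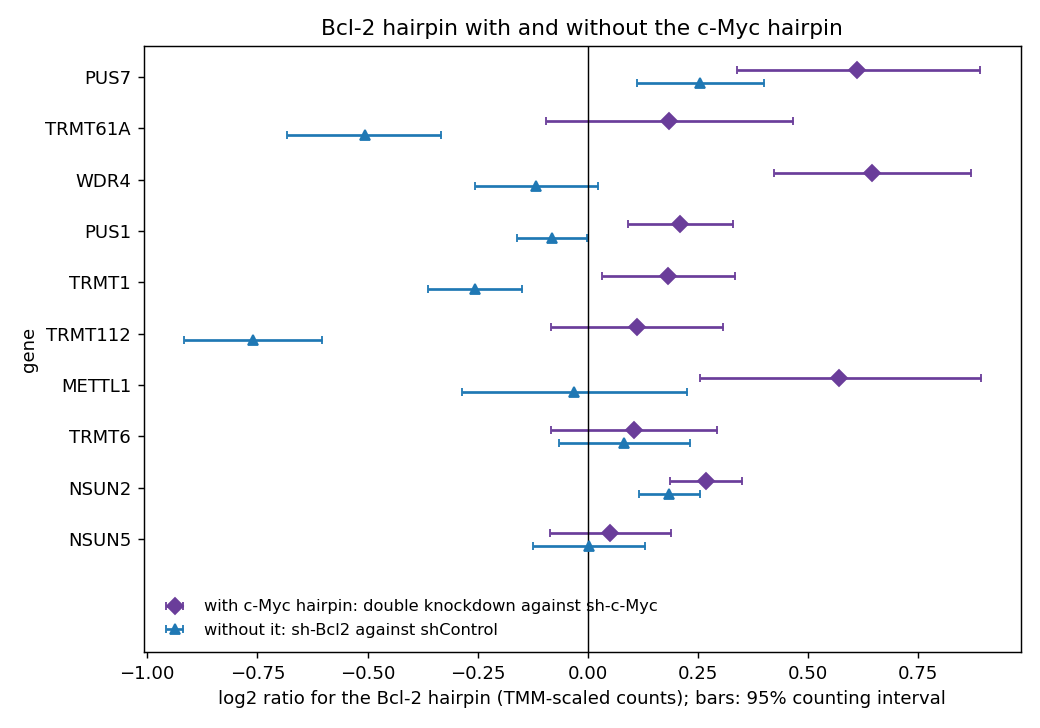
Log2 ratio that accompanied the Bcl-2 hairpin in each of the 10 genes, with the c-Myc hairpin present (double knockdown against sh-c-Myc) and absent (sh-Bcl2 against shControl), with 95% counting intervals as bars. With the c-Myc hairpin the points lie between 0.05 and 0.64, and without it between -0.76 and 0.26.

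The double knockdown's log2 ratio to shControl exceeded the summed log2 ratios of both single knockdowns, a departure from additivity above 0, for all 10, between 0.02 and 0.87, with 7 counting intervals above 0. Among all genes 45.6% of departures lay below 0, and the share with an interval above 0 was not computed. It was 0.87 (0.63 to 1.12) for TRMT112, 0.76 (0.50 to 1.02) for WDR4, 0.69 (0.37 to 1.02) for TRMT61A and 0.60 (0.20 to 1.00) for METTL1. None reached 1 log2 unit, so 0 of 10 were called, while 5.81% of all genes were called lower and 3.02% higher. For TRMT112 the 3 libraries with a hairpin against c-Myc, Bcl-2 or both were all low, as given above. Its additive c-Myc hairpin estimate of -0.75 thus lay between -1.18 without the Bcl-2 hairpin and -0.31 with it. The median departure of the 10 was 0.40, against 0.05 over all genes. For the lists of other RNA modification genes below, it was 0.40 for rRNA modification, 0.35 for pseudouridine synthases and 0.26 for tRNA methyltransferases. For tRNA modification genes it was 0.13 and for TRMT112 partners -0.015. MYC itself had a departure of 0.37 (0.29 to 0.45), and its part in these values was not tested. Total counts moved the median of all genes to -0.07 and turned NSUN2, NSUN5 and TRMT6 to values below 0, at -0.04, -0.07 and -0.10.

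Among the 10 genes, the highest FPKM level over the lowest was 7.86 in the double knockdown, 9.98 in sh-c-Myc and 6.94 in sh-Bcl2, against 5.98 in shControl. No counting interval was computed for these spreads, and the lowest gene differed between libraries. NSUN2 led in all 4 libraries, with 32.0 FPKM in the double knockdown, 28.5 FPKM in sh-c-Myc and 44.2 FPKM in sh-Bcl2, against 38.3 FPKM in shControl, where TRMT112 at 35.7 FPKM did not differ from it beyond counting error. METTL1 was lowest in shControl at 6.41 FPKM and in sh-Bcl2 at 6.37 FPKM. In sh-c-Myc PUS7 was lowest at 2.85 FPKM, below METTL1 at 3.68 FPKM by 1.29-fold (1.03 to 1.61), while METTL1 and TRMT61A, at 4.29 FPKM, did not differ beyond counting error. In the double knockdown METTL1 at 5.10 FPKM, TRMT61A at 4.56 FPKM and PUS7 at 4.07 FPKM were the lowest, and neither pair of neighbours among them differed beyond counting error. PUS1 and TRMT1, each at 29.8 FPKM in shControl, did not differ beyond counting error in shControl or in either library with the c-Myc hairpin.

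Other RNA modification genes were read in 5 lists that hold none of the 10 and share 7 genes among themselves. In sh-c-Myc against shControl 12 of 22 measured rRNA modification genes were called lower and 0 higher, beside 9.80% and 12.7% of all genes, with a median log2 ratio of -1.04. NHP2, a core protein of the H/ACA particles that guide pseudouridylation, had 8.53 CPM in sh-c-Myc and 30.2 CPM in shControl. NSUN4, a mitochondrial rRNA methyltransferase, had between 54.2 and 58.9 CPM in all 4. Of 11 other pseudouridine synthases 4 were lower and 0 higher, with a median of -0.84, and 2 were lower with total counts, where 6.64% of all genes were. DKC1, the catalytic protein of the H/ACA particles, had 157 CPM in the double knockdown, 101 CPM in sh-c-Myc and 291 CPM in sh-Bcl2, against 314 CPM in shControl, and PUS10 was at 0.02 (-0.32 to 0.37) in sh-c-Myc.

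In the tRNA lists the called shares lay nearer to the 9.80% of all genes called lower in sh-c-Myc. Of 36 measured other tRNA modification genes 7 were called lower and 0 higher in sh-c-Myc, with a median of -0.44. The list of 30 other tRNA methyltransferases also holds a few partner proteins and methylthiotransferases (THUMPD1, HSD17B10, CDKAL1, CDK5RAP1). Of these 30 genes 3 were lower and 0 higher, a count at the background share, with a median of -0.43. YRDC, which acts in making threonylcarbamoyl adenosine, was at -1.27 (-1.58 to -0.97) in sh-c-Myc and TYW5, a hydroxylase of the wybutosine pathway, at 0.62 (0.33 to 0.92). METTL2A, which methylates cytosine in tRNA, was at -1.20 (-1.46 to -0.95), and TRMT1L, a relative of TRMT1, at 0.40 (0.24 to 0.56). With total counts 1 of the 36 and 1 of the 30 were called lower, below the 6.64% of all genes. In the double knockdown against shControl 5 of the 22 rRNA modification genes were called lower and 0 of the genes of the other lists, beside 5.95% of all genes.

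In sh-c-Myc, where TRMT112 was 2.27-fold lower, 0 of the 7 methyltransferases that it activates were called, which with 9.80% of all genes called lower is near the background. Their log2 ratios were -0.96 for TRMT11, -0.67 for METTL5, -0.60 for ALKBH8, -0.49 for THUMPD2, -0.48 for N6AMT1, -0.39 for BUD23 and -0.29 for THUMPD3, with a median of -0.49. In sh-Bcl2, where TRMT112 was at -0.76, the partners were between -0.30 for TRMT11 and 0.45 for THUMPD3, with a median of 0.12.

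**Figure D5:**
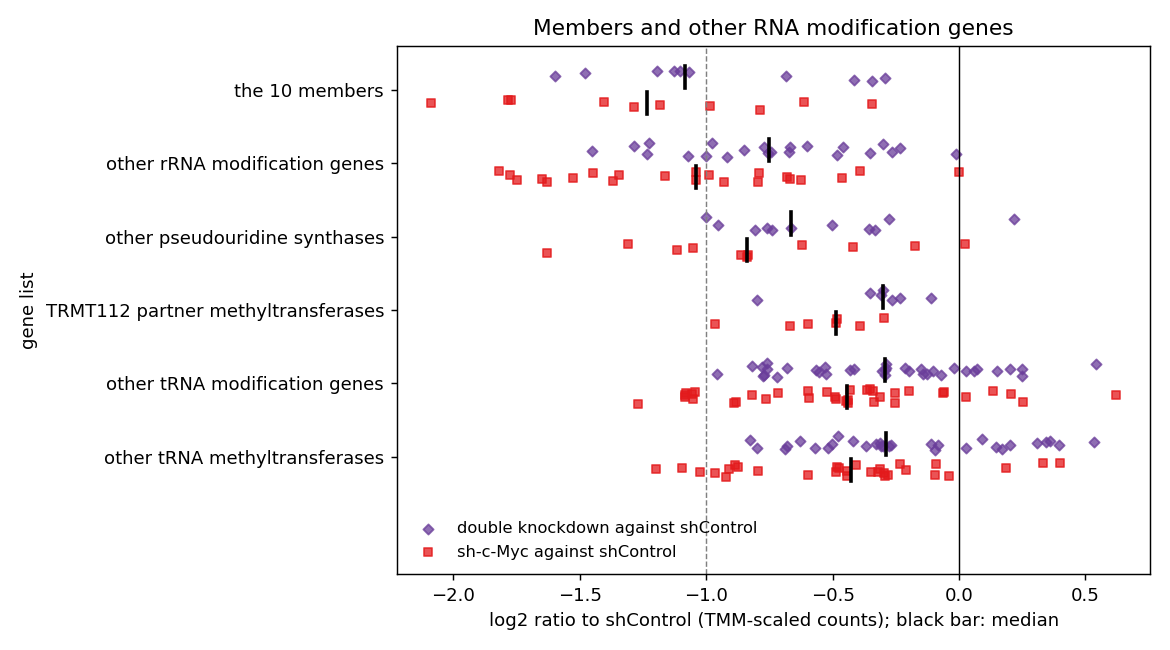
Log2 ratio to shControl of every measured gene in the 10-gene set and in 5 lists of other RNA modification genes, in the double knockdown and in sh-c-Myc, with black bars at the medians. The sh-c-Myc medians run from -1.23 for the 10 genes and -1.04 for other rRNA modification genes to -0.43 for other tRNA methyltransferases.

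The promoters of the 10 genes were searched for CACGTG, the palindromic hexamer known as the canonical E-box that c-Myc with its partner MAX can bind. RefSeq promoter sequences (GRCh38.p14, 250 bases before to 50 after the start) matched 7 of the 10, and PUS1, NSUN2 and METTL1 had none. The hexamer occurred in 3 of the 7, PUS7, TRMT6 and TRMT61A, against 12.7% of 9571 genes that passed the CPM filter, and each match lay after the annotated start. The 30 bases around each match are shown because they hold the searched letters, with the hexamer in capitals.
PUS7 (chr7:105522226-105522255, minus strand, 28 bases after the start): gtcgctgcgccgCACGTGtgcgagcccggc
TRMT6 (chr20:5950512-5950541, minus strand, 4 bases after the start): agcggcgtgcaaCACGTGggggcggtgccg
TRMT61A (chr14:103529216-103529245, plus strand, 32 bases after the start): gcgtcgcggaggCACGTGtggagccccggc
The variant CACGCG, read on both strands, occurred in 1 of the 7, TRMT112, against 22.8% of the 9571 genes. WDR4 and TRMT1, both called lower in sh-c-Myc, held neither in this window, and TRMT6, which held the E-box, was at -0.79. A match is a description of letters in a window, and binding was not measured here.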

How the data were processed

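The authors deposited 1 table with a read count and an FPKM value per gene in each of 4 libraries. Per the submitters' processing notes, reads were handled with HISAT2 and HTSeq 0.13.5 on GRCh38, and the version of HISAT2, the annotation release and the strand setting were not given in the sources used here. Per the labels' protocols, 1.5 µg of RNA went into each NEBNext Ultra library, cells were selected with 0.5 µg/ml puromycin or 600 µg/ml G418, and the Western blot was made at 72 h of doxycycline. The authors' counts divided by their FPKM gave lengths that were whole numbers within 0.01 base in 100% of values checked. All 24940 identifiers matched GENCODE 29, which gave coordinates, exon overlap and the GC content of each gene's longest transcript.

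Ratios used TMM-scaled counts (edgeR 4.0.16, prior count 0.5) with exact conditional binomial 95% intervals. CPM intervals are Poisson. Intervals cover counting error only. The 2 by 2 fit used edgeR's quasi-likelihood test on the 12885 genes that reached 1 CPM in 2 or more libraries (common dispersion 0.0221, 11.1 prior degrees of freedom). DESeq2 1.42.0 and limma 3.58.1 (voom) were alternatives. The ratios were tried on simulated Poisson counts, and the edgeR fit on simulated counts with a fixed dispersion. The counts for the ratios had no spread between cultures, and those for the fit had no departure from additivity. The members and lists were chosen with earlier results of these data known. Named in the text are the 10 members, MYC, BCL2, the lowest and highest gene of each list in sh-c-Myc among those with at least 10 CPM in 1 library, all TRMT112 partners, and overlapping genes or copies of members. All markers named beside them, such as FLT3, CD33, MPO, LYZ, CD14, CD163, FCN1, VCAN and NKG7, were picked after their values were seen. Marker lists of T and NK, B, erythroid, megakaryocyte, and epithelial and fibroblast genes were summed too. NKG7 made up nearly all of the T and NK sum, with 827 to 1018 counts, B cell markers summed to at most 5.26 CPM, megakaryocyte markers to 9.69 CPM, and epithelial and fibroblast markers to 1.28 CPM.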

Additional observations from a re-analysis of the deposited data

Results flagged for a closer look

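With TMM, the Bcl-2 hairpin went with opposite directions in PUS1 and TRMT1 depending on the c-Myc hairpin, both counting intervals clear of 0. PUS1 was at 0.21 (0.09 to 0.33) with the c-Myc hairpin present and at -0.08 (-0.16 to -0.00) in sh-Bcl2 against shControl, a departure of 0.29. TRMT1 was at 0.18 (0.03 to 0.33) with the c-Myc hairpin present and at -0.26 (-0.36 to -0.15) in sh-Bcl2 against shControl, a departure of 0.44. With 1 library per group the difference was not tested. The PUS1 interval in sh-Bcl2 ended at -0.0012. With total counts PUS1 was at 0.11 and TRMT1 at 0.08 with the c-Myc hairpin, and at -0.06 and -0.23 without it. Intervals move with the ratio under a change of scaling. Both PUS1 intervals, and that of TRMT1 with the c-Myc hairpin, then held 0. After removal of the GC and length trend, PUS1 was at 0.37 with the c-Myc hairpin and 0.10 without it, and TRMT1 at 0.29 with it and -0.06 (-0.16 to 0.05) without it, so the opposite directions did not remain clear of 0.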

How the results depend on the processing

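No paired analysis was possible because each group holds 1 library, and for the same reason no library could be left out. None of the called members changed sign under any alternative run. In the double knockdown against shControl 3 members stayed called with log2(FPKM + 1) and 3 with the GC and length trend removed, TRMT1, TRMT112 and WDR4 falling just short in both (-0.97, -0.95 and -0.97, then -0.94, -0.92 and -0.95), and 1 in its comparison with sh-Bcl2 under log2(FPKM + 1); that scale understates changes of low genes by construction. At 1.5-fold 1 member was lower in sh-Bcl2 against shControl (768 of 13726 genes), 2 were higher in the double knockdown set against sh-c-Myc (5.92% of genes), and 4 had a higher departure (9.91% of genes). At 1.5-fold the list calls in the double knockdown against shControl were 5 for tRNA methyltransferases, 6 for pseudouridine synthases, 9 for tRNA modification, 15 for rRNA modification and 1 for TRMT112 partners, with 14.8% of all genes lower, and in sh-c-Myc 10, 8, 15 (14 lower, 1 higher), 19 and 3 in that order, with 20.4% lower and 19.9% higher. With total counts the calls in sh-c-Myc were 1, 2 and 1 for the first 3 lists, and the cause was not tested. TRMT112 also missed 2-fold in sh-c-Myc with upper quartile factors (-0.999) and log2(FPKM + 1) (-0.96), and WDR4 in the double knockdown set against sh-Bcl2 under upper quartile factors (-0.97). For the c-Myc term 7 to 9 members passed across the edgeR, DESeq2 and limma-voom runs, the 7 under DESeq2, and for the Bcl-2 term 0. METTL1 passed only without a filter on low counts (adjusted p = 0.0293). For the c-Myc term over all genes, total counts gave 1774 falling and 2291 rising genes, against 1835 and 1186 with TMM. METTL1, at 139 to 262 counts, had the widest intervals of the 10.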

Other observations

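The 12 rRNA modification genes called lower in sh-c-Myc, named here after their values were seen, were FBL, NOP56, NOP58 and SNU13 of the C/D particles that guide sugar methylation, DKC1, NHP2 and GAR1 of the H/ACA particles, the acetyltransferase NAT10, the pseudouridine methyltransferase EMG1, and the mitochondrial enzymes MRM1, MRM3 and TFB1M. FBL, NHP2, GAR1, NAT10 and MRM1 were also called lower in the double knockdown, both comparisons sharing the shControl library.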
